A study of Mus musculus with 6 samples.

Results

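The glutathione and peroxide defence genes are the enzymes that make glutathione, use it to detoxify reactive compounds, and remove superoxide and peroxides. They were taken by gene symbol from the deposited table as the glutathione transferases (Gsta, Gstm, Gsto, Gstp, Gstt, Gstz, Gstk1 and Mgst genes), glutathione peroxidases, peroxiredoxins, thioredoxins and thioredoxin reductases, superoxide dismutases, catalase, the glutathione synthesis genes, Nqo1, Hmox1 and Srxn1. This gave 54 of the 23366 genes in the table. The values come from RNA-seq of epithelial cells isolated from the submandibular salivary gland of mice aged 12 weeks, with 3 libraries of the p63 knockout and 3 of the wild type. The labels do not name the targeted exons, the strain or a Cre driver, and they do not say whether a library holds 1 animal or several, so the p-values measure the spread between these libraries.

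Glutathione is a short peptide whose cysteine thiol serves as a reducing agent. Its synthesis starts with glutamate-cysteine ligase, made of the catalytic subunit Gclc and the modifier subunit Gclm, and ends with glutathione synthetase (Gss), while glutathione reductase (Gsr) returns oxidised glutathione to the reduced form. Superoxide dismutases turn superoxide into hydrogen peroxide, which is then removed by catalase, by glutathione peroxidases at the expense of glutathione, and by peroxiredoxins at the expense of thioredoxin. Many of these genes are induced through NRF2 (Nfe2l2), a transcription factor that KEAP1 holds at a low level in unstressed cells. In salivary ducts hydrogen peroxide also has a use outside the cell, since DUOX2 supplies it to lactoperoxidase in saliva.

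The glutathione peroxidases are shown first by sequence, because the members with the lowest adjusted p, Gpx1 and Gpx8, differ in the residue that does the chemistry. In each line the capitals mark the codon of the active site, with its flanking coding bases on the coding strand from GENCODE M21 transcripts. TGA is read here as selenocysteine, and TGC and TGT encode cysteine.
Gpx1: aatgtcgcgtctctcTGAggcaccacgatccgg
Gpx2: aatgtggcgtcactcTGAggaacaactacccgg
Gpx3: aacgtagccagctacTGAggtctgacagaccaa
Gpx4: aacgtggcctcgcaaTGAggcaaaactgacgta
Gpx5: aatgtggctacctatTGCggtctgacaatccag
Gpx6: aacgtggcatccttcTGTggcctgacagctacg
Gpx7: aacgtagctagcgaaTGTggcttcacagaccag
Gpx8: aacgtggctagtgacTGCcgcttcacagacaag
In Gpx1 the TGA is codon 47, in exon 1 of 2, at chr9:108339451-108339453 of GRCm38 on the plus strand. In Gpx8 the TGC is codon 79, in exon 2 of 3, at chr13:113045661-113045663 on the minus strand. Over all 54 members, an in-frame TGA before the stop codon was present in 7, namely Gpx1, Gpx2, Gpx3, Gpx4, Txnrd1, Txnrd2 and Txnrd3. In the thioredoxin reductases it is the last codon but one, as in Txnrd1:
Txnrd1: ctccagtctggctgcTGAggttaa

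The targeted gene, Trp63, measured 1.59, 0.816 and 1.76 TPM in knockout libraries 1, 2 and 3 and 3.48, 1.85 and 3.68 TPM in wild-type libraries 1, 2 and 3 (log2 fold change -0.74, SE 0.27, adjusted p = 0.27). TPM is a transcript abundance corrected for gene length and scaled to 1000000 per library, so levels of different genes can be compared but the sequencing depth is unknown. Knockout library 3 stood apart from the other libraries. It had 10634 genes at 1 TPM or more against 11129 to 11235 in the others, and its 50 most abundant genes took 80.3% of the TPM against 69.2% to 75.9%. Some products of neighbouring salivary glands also varied: Amy1, the amylase of the parotid gland, was at 1586 TPM in knockout library 1 and 713 TPM in wild-type library 2 against 41.1 to 77.6 TPM elsewhere, and the sublingual mucin gene Muc19 was at 21.3 and 38.8 TPM in knockout library 1 and wild-type library 1 against at most 0.885 TPM elsewhere. Both are among 11 genes listed as parotid and sublingual products, not all of which varied in this way. Scgb2b27 and Car6 of that list were abundant in every library, at 60533 to 75365 TPM and 35741 to 76961.5 TPM. Car6 was higher in every knockout library than in every wild-type library (5.42% of all tested genes). Of 10 genes listed as submandibular acinar, Prol1 and Pip were abundant in every library, at 68796 and 56985 TPM or more. Bpifa2 ran from 15.3 to 5152 TPM, Dcpp1 from 3.49 to 2091 TPM and Smgc from 0.0234 to 45.4 TPM. Bpifa2 was highest in the libraries high in Amy1, at 3648 TPM in knockout library 1 and 5152 TPM in wild-type library 2. Dcpp1 and Smgc were highest in the libraries high in Muc19. They measured 456 and 3.31 TPM in knockout library 1 and 2091 and 45.4 TPM in wild-type library 1. Which gland the transcripts of these 3 genes came from was not tested. The summed TPM of 15 duct and tubule genes, 1 of them at 0 throughout, was 14789 to 35932 in the knockout and 73445 to 86134 in wild type. Genes of fibroblasts and macrophages were present too, with values given beside the peroxidases.

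Together the 54 genes made up 0.275%, 0.231% and 0.263% of the TPM in wild-type libraries 1, 2 and 3, and 0.239%, 0.217% and 0.170% in knockout libraries 1, 2 and 3. Of the 54, 43 reached 1 TPM in at least 3 libraries and were tested. The 11 others were Gpx5 and Gsta1, listed at 0 in every library, and Gpx6, Gsta2, Gstm3, Gstm6, Gsto2, Gstp2, Gstt4, Mgst2 and Sod3, which never exceeded 2.096 TPM. No member passed the test of knockout against wild type over all 11268 tested genes with limma at an adjusted p of 0.05, in which 0.39% of all genes were called (0.071% higher and 0.319% lower in the knockout). The lowest adjusted p among the 43 was 0.069, and 7 had an unadjusted p under 0.05 (16.3%, where 15.4% of all tested genes did).

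Levels of the members were more often lower than higher in the knockout. In 11 of the 43 (25.6%) every knockout library lay below every wild-type library, which was the case for 15.6% of all tested genes. In 0 of the 43 did every knockout library lie above every wild-type library, against 5.42% of all tested genes. With 3 libraries against 3, an exact two-sided permutation test cannot give less than p = 0.1, and it gave that value for each of the 11. The 11 were Gpx1, Gpx8, Gstk1, Gstm4, Gstp1, Gstz1, Prdx1, Prdx2, Prdx3, Prdx5 and Srxn1. The median log2 fold change of the 43 was -0.24, where the median of all tested genes was 0.09, with 31 negative and 12 positive values between -1.13 and 0.79.

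**Figure D1:**
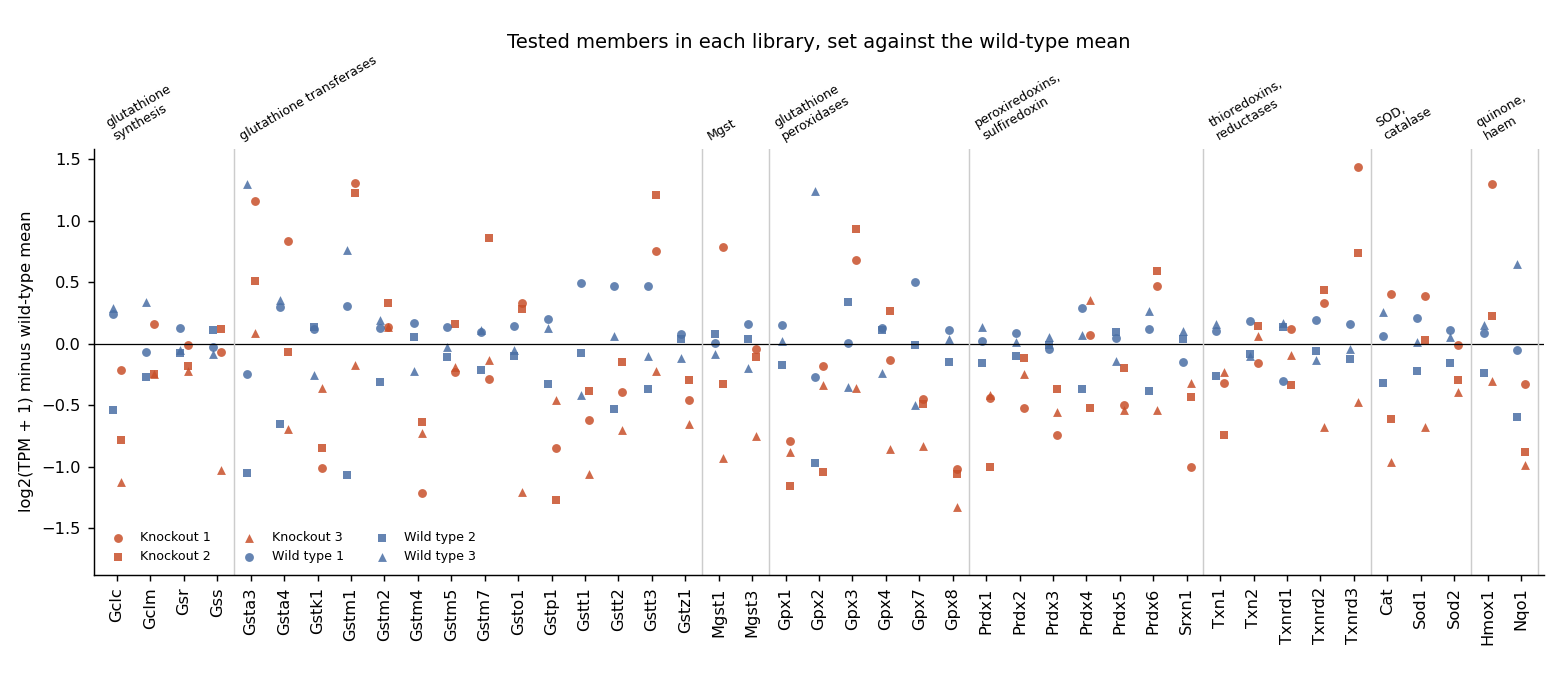
The 43 tested members on the x axis, ordered by role, with each library's log2(TPM + 1) minus the wild-type mean on the y axis (circles, squares and triangles are libraries 1, 2 and 3; blue is wild type, orange is knockout). All 3 knockout libraries lie below all 3 wild-type libraries for Gpx1, Gpx8 and 9 other members, while for Gstm1, Gstt3 and Txnrd3 knockout libraries 1 and 2 lie high and knockout library 3 does not.

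The position of the members relative to other genes was alike in knockout libraries 1 and 2, and less pronounced in knockout library 3. Measured from the mean of the wild-type libraries, the 43 members had a median of -0.13, -0.19 and -0.47 on the log2 scale in knockout libraries 1, 2 and 3, where the median of all tested genes was 0.27, 0.24 and -0.29. The member median was therefore the lower of the pair in each knockout library. In the wild-type libraries the 2 medians lay closer together, at 0.12, -0.15 and 0.04 for the members and 0.02, -0.03 and 0.01 for all tested genes. The mean subtracted is that of these same libraries, which holds their values near 0, so the closer medians are no separate contrast.

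**Figure D2:**
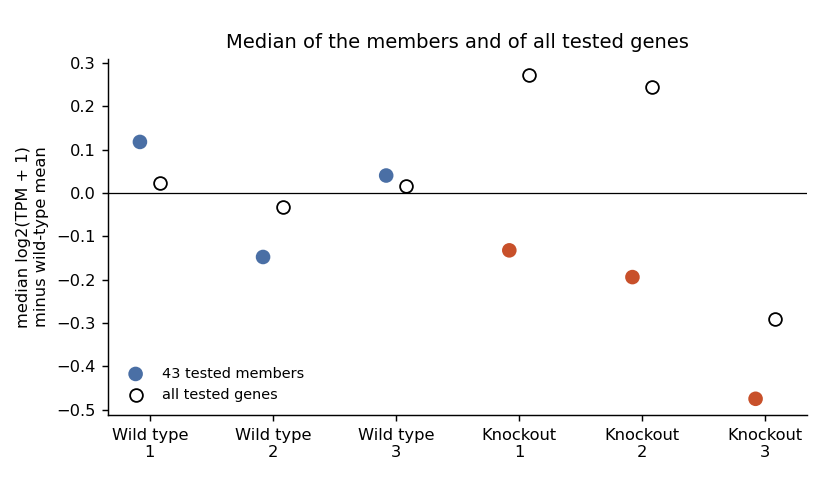
Median log2(TPM + 1) minus the wild-type mean (y axis) in each library (x axis), for the 43 tested members (filled; blue wild type, orange knockout) and for all 11268 tested genes (open circles). In the 3 knockout libraries the members lie below all tested genes, at -0.13, -0.19 and -0.47 against 0.27, 0.24 and -0.29.

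Among the 4 genes of glutathione synthesis and reduction, none passed and all had negative fold changes. Gclc, whose product sets the rate of glutathione synthesis, measured 20.7, 13.7 and 10.6 TPM in knockout libraries 1, 2 and 3, and 28.9, 16.4 and 29.9 TPM in wild-type libraries 1, 2 and 3. The groups overlapped through wild-type library 2 (log2 fold change -0.71, SE 0.33, adjusted p = 0.35). Gss measured 16.8, 19.3 and 8.19 TPM in the knockout against 17.3, 19.2 and 16.7 TPM in wild type, so that knockout library 3 alone was low (-0.33, SE 0.32, adjusted p = 0.59). Gsr was the most even of the 4, at 11.5 ± 1.01 TPM in the knockout against 12.7 ± 1.09 TPM in wild type (SD, n = 3 each, -0.14, SE 0.20, adjusted p = 0.73). The modifier subunit gene Gclm had a log2 fold change of -0.11 (SE 0.25, adjusted p = 0.83).

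Glutathione transferases join glutathione to reactive compounds and fall into classes by sequence. Of 21 such genes 14 were tested, and 4 had groups that did not overlap, all lower in the knockout (15.6% of all tested genes), in different classes. Gstk1, the kappa class enzyme of mitochondria and peroxisomes, measured 23.9, 26.8 and 38.1 TPM in the knockout against 53.3, 54.1 and 41.0 TPM in wild type. The highest knockout library and the lowest wild-type library were both the third of their group (log2 fold change -0.74, SE 0.24, adjusted p = 0.23). Gstp1, the pi class enzyme, measured 7.98, 5.70 and 10.7 TPM in the knockout against 17.6, 11.8 and 16.6 TPM in wild type, with knockout library 2 lowest (-0.86, SE 0.28, adjusted p = 0.23). Its near copy Gstp2 shares 98.1% of 633 coding bases with it and stayed at or below 0.417 TPM, and the counting of reads that match both is not stated.

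The mu class genes differed in the sign of their fold change. Gstm4 measured 1.51, 2.75 and 2.53 TPM in the knockout against 5.54, 5.06 and 3.99 TPM in wild type, a low gene with every knockout library below (log2 fold change -0.86, SE 0.24, adjusted p = 0.16). Gstm1, the most abundant mu class gene, pointed the other way in the means, at 106, 101 and 37.4 TPM in the knockout against 52.5, 19.7 and 72.5 TPM in wild type. Its libraries were widely spread in both groups, and knockout library 3 lay below wild-type libraries 1 and 3 (0.79, SE 0.56, adjusted p = 0.47). Without the 3 libraries high in Amy1 or Muc19 its sign turned, to -0.23. Gstm2 was even, at 49.8 ± 4.11 TPM and 43.6 ± 7.997 TPM (SD, n = 3 each, 0.20, SE 0.21, adjusted p = 0.62). Coding sequences of Gstm2, Gstm3, Gstm4 and Gstm7, the 4 genes of this class with equal length, are 79.1% to 84.9% identical. Gstm1 was not in that comparison. Whether reads shared between genes of this class blur their levels was not tested.

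The most abundant transferase was Gsto1, of the omega class. It measured 203, 197 and 69.7 TPM in the knockout against 178, 151 and 156 TPM in wild type, with knockout library 3 below all others and knockout libraries 1 and 2 above all others (log2 fold change -0.19, SE 0.40, adjusted p = 0.81). Without knockout library 3 its log2 fold change was 0.31 (adjusted p = 0.11), of the opposite sign. Gstz1, which acts in tyrosine breakdown, was the fourth transferase with groups apart, at 14.9 ± 1.96 TPM in the knockout against 20.97 ± 1.54 TPM in wild type (-0.47, SE 0.20, adjusted p = 0.33). The other tested transferases, Gsta3, Gsta4, Gstm5, Gstm7, Gstt1, Gstt2 and Gstt3, had log2 fold changes from -0.69 (Gstt1) to 0.59 (Gsta3), and their groups overlapped. Gsta2 was too low to be tested, at 0, 0.0813 and 0.183 TPM in the knockout against 0.813, 0.479 and 0.762 TPM in wild type.

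The Mgst enzymes are glutathione-dependent proteins of membranes. Mgst1 measured 99.6, 45.7 and 29.7 TPM in the knockout against 57.7, 60.8 and 54.0 TPM in wild type. The knockout libraries lay on both sides of a tight wild-type group (log2 fold change -0.16, SE 0.40, adjusted p = 0.85), and without knockout library 3 the value turned to 0.23 (adjusted p = 0.55). Mgst3 was at 24.9 ± 6.39 TPM in the knockout against 30.3 ± 3.84 TPM in wild type (SD, n = 3 each, -0.30, SE 0.25, adjusted p = 0.54).

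The glutathione peroxidases held the 2 members with the lowest adjusted p. Gpx1, the cytosolic selenoenzyme and the most abundant member of all 54 in each wild-type library, measured 259, 201 and 244 TPM in knockout libraries 1, 2 and 3 and 497, 398 and 456 TPM in wild-type libraries 1, 2 and 3. The highest knockout library was well below the lowest wild-type library (log2 fold change -0.94, SE 0.19, adjusted p = 0.079). Gpx8, a membrane-anchored peroxidase of the endoplasmic reticulum with cysteine at its active site, measured 3.48, 3.35 and 2.62 TPM in the knockout against 8.78, 7.19 and 8.33 TPM in wild type. It was lower in each knockout library than in any wild-type library (-1.13, SE 0.22, adjusted p = 0.069). Of 18 alternatives Gpx8 passed in 5, including scaling by median of ratios (adjusted p = 0.038) and quantile normalization (adjusted p = 0.031). With these 2 scalings 58 and 55 of all 11268 tested genes were called lower, against 36 without rescaling. Gpx1 passed in 2 of 18, array weights and without knockout library 3, where 42.8% and 45.5% of all tested genes were called. The lowest adjusted p over the alternatives was 0.0017 for Gpx8 and 0.0022 for Gpx1. Without wild-type library 1 the lowest adjusted p of any member was 0.37, that of Gpx8.

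The other peroxidases did not show the pattern of Gpx1, although Gpx2, Gpx3 and Gpx4 share its selenocysteine codon. Gpx4, which reduces lipid peroxides in membranes, measured 139, 184 and 83.9 TPM in the knockout against 167, 165 and 129.6 TPM in wild type (log2 fold change -0.24, SE 0.30, adjusted p = 0.67). Its knockout libraries lay on both sides of the wild-type range. Gpx3, the secreted plasma form, measured 23.2, 27.8 and 10.7 TPM in the knockout against 14.2, 18.1 and 10.8 TPM in wild type, with knockout libraries 1 and 2 above all wild-type libraries and knockout library 3 just below them (0.42, SE 0.37, adjusted p = 0.56). Gpx2, an epithelial form, was spread within wild type, at 6.95, 3.90 and 21.7 TPM, and measured 7.46, 3.65 and 6.61 TPM in the knockout (-0.52, SE 0.55, adjusted p = 0.62). Gpx7, a relative of Gpx8 in the endoplasmic reticulum, was low, at 1.14, 1.09 and 0.645 TPM in the knockout against 3.15, 1.91 and 1.07 TPM in wild type (-0.59, SE 0.28, adjusted p = 0.35).

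**Figure D3:**
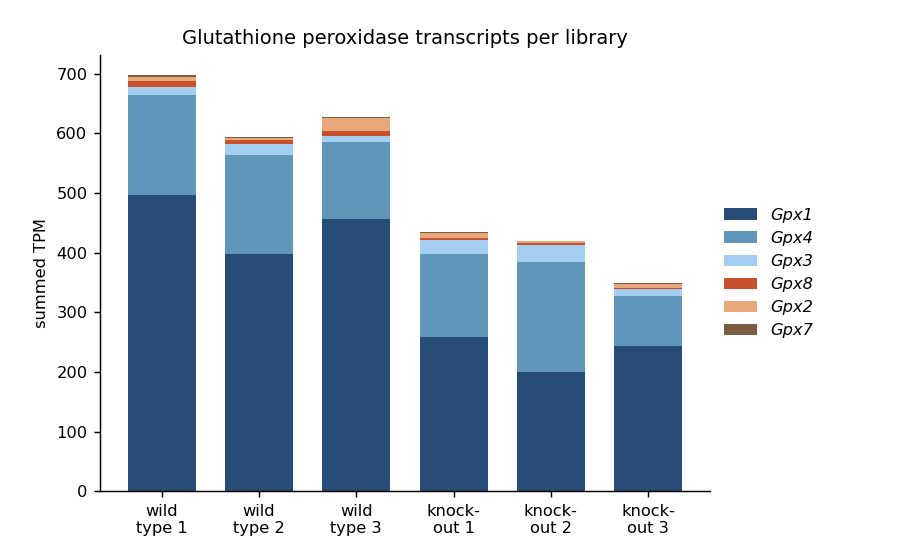
Summed TPM of the glutathione peroxidase genes (y axis) in each library (x axis), with 1 colour for each gene; Gpx5 and Gpx6, with at most 0.110 TPM, are left out. The 3 wild-type bars reach 595 to 697 TPM and the 3 knockout bars 349 to 434 TPM, with Gpx1 the largest segment in each.

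As a family the peroxidases summed to 434, 420.3 and 349 TPM in the knockout against 697, 595 and 627 TPM in wild type. Gpx1 supplied 59.8%, 47.7% and 70.0% of the sum in knockout libraries 1, 2 and 3, and 71.4%, 67.0% and 72.7% in the wild-type libraries. The ratio of Gpx1 to Gpx4, which does not depend on the scaling of a library, was 1.86, 1.09 and 2.91 in the knockout and 2.99, 2.41 and 3.52 in wild type. The ratio overlapped between the groups through knockout library 3, in which Gpx4 was at its lowest.

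Markers of several other cell types were also lower in the knockout libraries, though not of all. In bulk samples, fewer cells of a type and less RNA per cell cannot be told apart. Of all tested genes, 15.6% were lower in every knockout library than in every wild-type library, the share to set beside the counts that follow. The summed TPM of 13 macrophage and dendritic cell genes, none at 0 throughout, was 244 to 347 in the knockout and 560.3 to 632 in wild type, with 9 of the 13 lower in every knockout library than in every wild-type library. For 10 fibroblast genes, none at 0 throughout, the sum was 165 to 322 TPM against 370.4 to 475 TPM, with 6 of the 10 lower without overlap. For 10 basal and myoepithelial genes, none at 0 throughout, it was 191 to 316 TPM against 562 to 619 TPM, with 9 of the 9 tested lower without overlap. Of 7 red blood cell genes, a cell type rich in Gpx1, Prdx2 and Cat, 4 were at 0 throughout, all of them globin genes, and the sum was 1.56 to 4.13 TPM against 4.44 to 7.11 TPM. The sum of 10 adipocyte genes, none at 0 throughout, overlapped, at 98.9 to 576 TPM against 130.01 to 366 TPM. Of 9 tested endothelial genes 5 had negative and 4 positive fold changes, with 5 lower without overlap. The sum of the 10 acinar genes was higher in the knockout, at 191784 to 239588 TPM against 142360 to 161813 TPM. Most of it was Prol1 and Pip, at 144115 and 95124.5 of 239588 TPM in knockout library 2. Of the 9 tested acinar genes, 6 had negative and 3 positive fold changes, with a median of -0.11. In 3 every knockout library lay above every wild-type library (5.42% of all tested genes). The part of these cells in the peroxidase levels was not tested.

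Peroxiredoxins are abundant thiol peroxidases of the cytosol, mitochondria, endoplasmic reticulum and peroxisomes, and sulfiredoxin (Srxn1) repairs them when they are overoxidised. Of the 7 genes, 5 had every knockout library below every wild-type library, as 15.6% of all tested genes did, and none passed over all genes. Prdx1, a cytosolic form, measured 165, 111 and 168 TPM in the knockout against 227, 202 and 247 TPM in wild type, with the lowest library of each group the second (log2 fold change -0.62, SE 0.22, adjusted p = 0.25). Prdx3, the mitochondrial form, had a tight wild-type group, at 59.1, 76.7 and 67.4 TPM in the knockout against 96.5, 98.9 and 103 TPM in wild type (-0.56, SE 0.18, adjusted p = 0.23).

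The differences of the other peroxiredoxins were smaller. Prdx2, cytosolic as well, measured 122, 161 and 148 TPM in the knockout against 186, 163 and 177 TPM in wild type, so knockout library 2 and wild-type library 2 nearly met (log2 fold change -0.29, SE 0.19, adjusted p = 0.44). Prdx5, found in mitochondria, peroxisomes and cytosol, measured 114, 140.2 and 110.5 TPM in the knockout against 166, 171 and 146 TPM in wild type (-0.41, SE 0.19, adjusted p = 0.35). Srxn1 measured 5.52, 8.71 and 9.47 TPM in the knockout against 10.8, 12.4 and 13.1 TPM in wild type, with knockout library 1 lowest (-0.58, SE 0.25, adjusted p = 0.33). Prdx4, the form of the endoplasmic reticulum, and Prdx6, which uses glutathione in place of thioredoxin, overlapped between the groups, at log2 fold changes of -0.03 and 0.17.

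**Figure D4:**
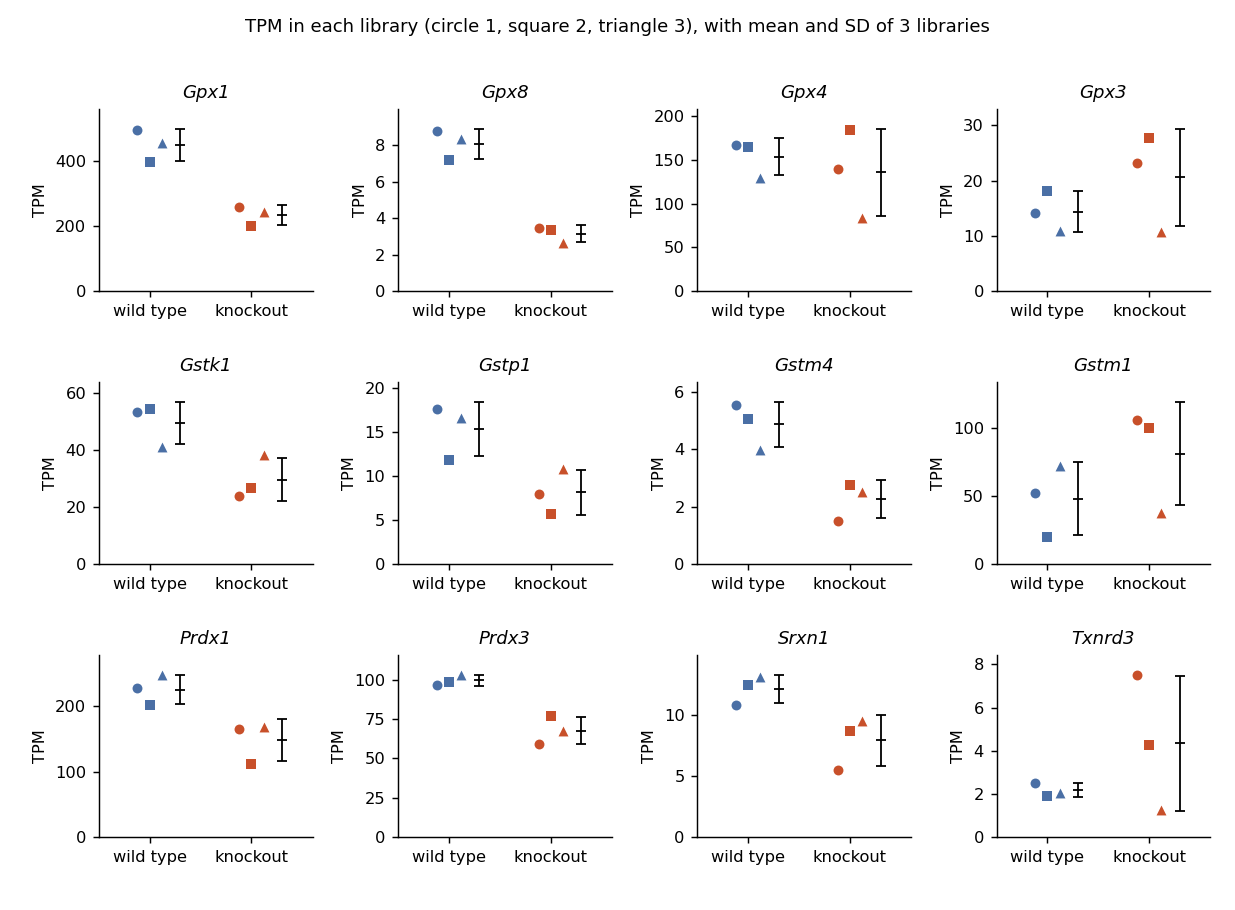
TPM (y axis, from 0) of 12 members in each wild-type (blue) and knockout (orange) library, with the mean and SD of 3 libraries in black. The groups are apart for Gpx1, Gpx8, Gstk1, Gstp1, Gstm4, Prdx1, Prdx3 and Srxn1, and overlap for Gpx4, Gpx3, Gstm1 and Txnrd3.

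The promoters of Prdx1 and Srxn1 are printed because both genes belong to the 11 members apart and hold the core of the antioxidant response element, to which NRF2 binds. The search was for TGACNNNGC on both strands of the RefSeq windows on GRCm38.p6, which run from 250 bases before to 50 bases after the gene start. Capitals mark the matches, shown on the strand of the gene.
Prdx1: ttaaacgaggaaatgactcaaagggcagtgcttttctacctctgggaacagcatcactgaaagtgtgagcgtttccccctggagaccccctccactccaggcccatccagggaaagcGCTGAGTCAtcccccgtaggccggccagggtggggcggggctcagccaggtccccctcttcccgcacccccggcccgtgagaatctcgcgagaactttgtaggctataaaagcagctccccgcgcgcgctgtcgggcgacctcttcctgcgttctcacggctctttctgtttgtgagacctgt
Srxn1: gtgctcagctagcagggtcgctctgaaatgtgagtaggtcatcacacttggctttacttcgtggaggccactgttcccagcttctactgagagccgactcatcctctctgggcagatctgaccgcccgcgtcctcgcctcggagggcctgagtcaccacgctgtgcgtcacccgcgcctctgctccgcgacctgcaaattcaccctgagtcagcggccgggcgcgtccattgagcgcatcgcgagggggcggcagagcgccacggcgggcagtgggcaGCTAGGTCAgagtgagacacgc
The window of Prdx1 is chr4:116685349-116685648 and that of Srxn1 is chr2:152105274-152105573, both on the plus strand, and the matches start at base 118 and base 279 of the window. Of the 54 members 47 had a window, and the motif was found in 9 of the 37 tested members with one (24.3%), against 17.3% of 8397 tested genes and 14% of all 27025 genes with windows. It was in 2 of the 11 members that were apart and in 7 of the 26 whose groups overlapped, namely Gclm, Gsta3, Gstm5, Gstm7, Mgst1, Sod1 and Txnrd1. The site for AP-1, TGANTCA, which can overlap this motif as it does in Prdx1, was in 4 of the 37 (10.8%), namely Gstm5, Gstp1, Prdx1 and Srxn1, against 6.01% of the tested genes. A match describes these letters and says nothing of binding.

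The thioredoxin system, which supplies electrons to the peroxiredoxins, had 5 genes, of which none passed and none was apart. Txn1, cytosolic thioredoxin, measured 75.7, 56.2 and 80.7 TPM in the knockout against 102, 78.6 and 106 TPM in wild type, an overlap of knockout library 3 with wild-type library 2 (log2 fold change -0.43, SE 0.22, adjusted p = 0.38). Txn2, the mitochondrial form, was even at 66.1 ± 7.12 TPM and 65.3 ± 7.55 TPM (SD, n = 3 each, 0.02, SE 0.19, adjusted p = 0.96). Txnrd1, the cytosolic reductase, had a log2 fold change of -0.10 (SE 0.24, adjusted p = 0.83). Txnrd3, a reductase best known from testis, measured 7.53, 4.27 and 1.27 TPM in the knockout against 2.53, 1.90 and 2.07 TPM in wild type, with knockout libraries 1 and 2 above and knockout library 3 below all wild-type libraries (0.57, SE 0.45, adjusted p = 0.52).

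Superoxide dismutases and catalase overlapped between the groups. Sod1, the cytosolic copper and zinc enzyme, measured 320.4, 251 and 153 TPM in the knockout against 284, 209.7 and 247 TPM in wild type (log2 fold change -0.09, SE 0.29, adjusted p = 0.89). Knockout library 3 was lowest and knockout library 1 highest of all 6. Catalase (Cat), the peroxisomal enzyme, followed the same order in the knockout, at 109.8, 53.7 and 42.0 TPM, against 86.3, 66.0 and 99.2 TPM in wild type (-0.39, SE 0.36, adjusted p = 0.57). Sod2, the mitochondrial manganese enzyme, was at 44.2 ± 6.35 TPM in the knockout against 52.0 ± 5.08 TPM in wild type (SD, n = 3 each, -0.23, SE 0.20, adjusted p = 0.54).

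Hmox1, which breaks down haem, and Nqo1, which reduces quinones, are classical readouts of an oxidant response and had fold changes of opposite sign. Hmox1 measured 18.4, 8.21 and 5.37 TPM in the knockout against 7.35, 5.68 and 7.75 TPM in wild type, so that knockout library 1 stood above the rest (log2 fold change 0.41, SE 0.40, adjusted p = 0.60). Without that library the log2 fold change was -0.04, and without the 3 libraries high in Amy1 or Muc19 it was -0.19. Of 12 immediate early and heat shock genes, none at 0 throughout, 11 were tested and limma called 0 (5 had an unadjusted p under 0.05), with 3 higher without overlap (Fos, Egr1 and Ier3, against 5.42% of all tested genes) and 1 lower (Hsph1, against 15.6%), and their summed TPM was 99.1 to 214 in the knockout against 85.5 to 112 in wild type. Fos measured 4.34, 1.79 and 3.15 TPM in the knockout against 0.332, 0.359 and 0.544 TPM in wild type (1.49, SE 0.26, adjusted p = 0.064). The part of these genes' response in the levels of Hmox1 and the other members was not tested. Nqo1 was near the limit of the filter, at 1.06, 0.403 and 0.303 TPM in the knockout against 1.49, 0.704 and 3.04 TPM in wild type (-0.73, SE 0.34, adjusted p = 0.35).

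Leaving out knockout library 3 changed which members passed. In that comparison 11 of the 43 members passed (25.6%), while 45.5% of all tested genes did. The 3 that rose were Gpx3 (log2 fold change 0.81, adjusted p = 0.022), Gstt3 (0.98, adjusted p = 0.022) and Txnrd3 (1.09, adjusted p = 0.0091), or 6.98% of the members against 33.8% of all tested genes. The 8 that fell were Gpx1, Gpx8, Gstk1, Gstm4, Gstp1, Prdx1, Prdx3 and Srxn1, or 18.6% against 11.7%. Among them Gpx8 fell by 1.04 (adjusted p = 0.0021), Gstp1 fell by 1.06 (adjusted p = 0.0076) and Gpx1 fell by 0.97 (adjusted p = 0.0052). All 8 belong to the 11 members that were apart with all 6 libraries. Members apart with all 6 stay apart when a library is left out, so the 2 results are not independent. With array weights, which give less weight to a library that varies more, 3 members rose (6.98% against 30.9% of all tested genes) and 9 fell (20.9% against 11.9%), or 12 of the 43 (27.9% against 42.8%). Trp63 also passed without knockout library 3 (-0.85, adjusted p = 0.040). Without knockout library 1, wild-type library 1 and wild-type library 2, the libraries with high Amy1 or Muc19, 2 knockout libraries remained against 1 wild-type library, 0 members passed in limma's test and 2 had an unadjusted p under 0.05.

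**Figure D5:**
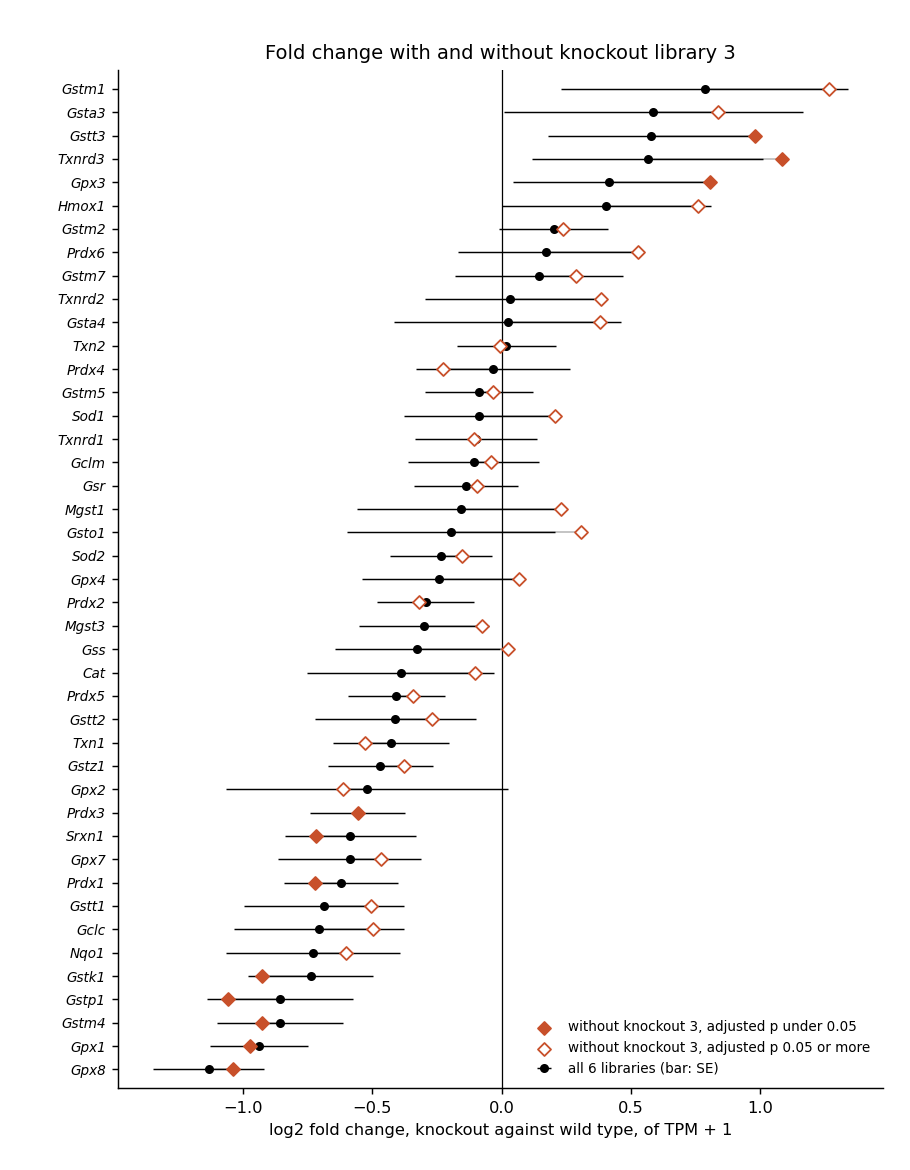
Log2 fold change of TPM + 1, knockout against wild type (x axis), of the 43 tested members (y axis), with all 6 libraries (black, bar: SE) and without knockout library 3 (orange diamonds, filled where the adjusted p is under 0.05). The 8 filled diamonds on the left lie within the SE bars of the black points, and the 3 on the right, Gpx3, Gstt3 and Txnrd3, lie farther from 0 than the black points.

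The genes around these enzymes were counted in 5 further lists. Where values without knockout library 3 are given for them, 33.8% of all tested genes were called higher and 11.7% lower in that comparison. Of 10 regulators of the NRF2 pathway limma called 0 (1 had an unadjusted p under 0.05), with 9 positive and 1 negative fold change and a median of 0.34. Mafk and Maff, which are small MAF partners of NRF2, had the largest values, while the third such gene, Mafg, was at 0.35 (adjusted p = 0.73). Mafk measured 78.2, 39.6 and 8.38 TPM in the knockout against 8.61, 11.3 and 9.51 TPM in wild type (log2 fold change 1.53, SE 0.69, adjusted p = 0.34), and Maff measured 26.9, 17.7 and 3.66 TPM against 3.47, 4.14 and 4.79 TPM (1.40, SE 0.61, adjusted p = 0.33). Both were high in knockout libraries 1 and 2 and within or near the wild-type range in knockout library 3, and without that library both passed, at 2.40 (adjusted p = 0.0011) for Mafk and 2.16 (adjusted p = 0.00072) for Maff. The 1 negative value was that of Nfe2l2 itself, a gene singled out after its values were seen, at 10.5, 18.9 and 34.7 TPM in the knockout against 39.9, 32.6 and 39.8 TPM in wild type (-0.93, SE 0.39, adjusted p = 0.32).

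Of 21 other tested target genes of NRF2, 0 passed (4 at an unadjusted p under 0.05), 6 were lower in every knockout library than in every wild-type library and 0 were higher (15.6% and 5.42% of all tested genes), with a median of -0.16. Ptgr1, which reduces reactive aldehydes and ketones, measured 3.54, 2.84 and 4.02 TPM in the knockout against 7.76, 6.75 and 8.51 TPM in wild type (log2 fold change -0.96, SE 0.22, adjusted p = 0.099). Me1, malic enzyme, which makes NADPH, measured 3.32, 1.30 and 3.46 TPM against 8.26, 3.57 and 7.83 TPM, with the second library lowest in each group (-1.02, SE 0.38, adjusted p = 0.27). The groups of Ptgr1 and Me1 did not overlap, though for Me1 knockout library 3 and wild-type library 2 were close.

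Of 34 tested genes of other glutathione and thiol handling, 0 passed (4 at an unadjusted p under 0.05), 4 were lower without overlap and 3 higher (15.6% and 5.42% of all tested genes), with a median of 0.03. The 4 lower ones, named after their values were seen, were Ggt1, Msra, Glo1 and Ggct. Ggt1 was at a log2 fold change of -1.29 (SE 0.296, adjusted p = 0.099). Msra was at -0.449 (adjusted p = 0.37), Glo1 at -0.332 (adjusted p = 0.41) and Ggct at -0.297 (adjusted p = 0.39). The 3 higher ones were Cth, Ahcy and Gnmt, of which Ahcy and Gnmt were singled out after their values were seen. Cth, which releases cysteine from cystathionine, measured 14.8, 32.6 and 3.39 TPM in the knockout against 2.89, 2.81 and 3.25 TPM in wild type, where knockout library 3 exceeded wild type only slightly (log2 fold change 1.74, SE 0.65, adjusted p = 0.27; 2.53 and 0.0011 without that library). Ahcy, which splits S-adenosylhomocysteine, measured 44.7, 63.4 and 26.5 TPM against 15.3, 15.02 and 16.5 TPM (1.38, SE 0.32, adjusted p = 0.099). Gnmt, a glycine methyltransferase that feeds it, was at a log2 fold change of 1.11 (SE 0.30, adjusted p = 0.14). Sesn1, a sestrin induced by p53, was at 185, 88.04 and 6.71 TPM in the knockout against 16.4, 10.8 and 17.4 TPM in wild type (1.69, SE 1.03, adjusted p = 0.43), and without knockout library 3 at 3.05 (adjusted p = 0.00092).

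Of 14 genes of selenoprotein synthesis and other selenium proteins, limma called 0 (2 had an unadjusted p under 0.05), and in 4 every knockout library lay below every wild-type library (15.6% of all tested genes). Selm, a selenoprotein of the endoplasmic reticulum, measured 41.1, 41.2 and 47.6 TPM in the knockout against 87.8, 84.5 and 69.1 TPM in wild type (log2 fold change -0.87, SE 0.19, adjusted p = 0.092). Selenbp1, a selenium-binding protein, was at 18.4, 31.2 and 5.30 TPM against 6.67, 6.61 and 8.40 TPM (0.95, SE 0.54, adjusted p = 0.41), and without knockout library 3 at 1.61 (adjusted p = 0.0022). Of 10 tested genes of oxidant production 0 passed (3 at an unadjusted p under 0.05), with 7 negative and 3 positive fold changes. In 2 every knockout library lay below every wild-type library and in 1 above (15.6% and 5.42% of all tested genes). The 1 above was Xdh, at 12.8, 29.4 and 10.9 TPM in the knockout against 8.43, 7.95 and 8.38 TPM in wild type (0.89, SE 0.36, adjusted p = 0.30). Duox2 (-0.39, adjusted p = 0.57) and Lpo, the lactoperoxidase gene (0.20, adjusted p = 0.73), overlapped between the groups. Duoxa2, the maturation factor of DUOX2, measured 11.4, 8.39 and 7.48 TPM in the knockout against 17.0, 15.4 and 24.5 TPM in wild type (-0.97, SE 0.26, adjusted p = 0.15). Cybb, the oxidase subunit of phagocytes, measured 1.09, 1.76 and 1.95 TPM against 3.53, 3.87 and 3.97 TPM (-0.90, SE 0.21, adjusted p = 0.11), in the same direction as the macrophage genes above, whose part in it was not tested. Ptgr1, Me1, Selm, Duoxa2 and Cybb each passed without knockout library 3, with adjusted p from 0.0029 for Ptgr1 to 0.039 for Me1. In that comparison 11.7% of all tested genes were called lower.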

How the data were processed

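RNA-seq of 3 p63 knockout and 3 wild-type libraries was used, grouped by the genotype label and numbered in accession order. The deposited values are TPM, which per the labels the authors normalized for gene length and library size. The submitters' processing notes name TopHat2 2.1.1, Bowtie2 2.2.6, featureCounts 1.5.1, DESeq2 1.20.0 and the mm9 genome. Annotation, strand setting and the treatment of shared reads are not stated there. TPM keeps no depth, so no counting error is given. Each value is a share of a fixed total, which a few abundant genes can move.

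The analysis used log2(TPM + 1), a scale on which differences between low genes come out too small. A gene entered the test with 1 TPM or more in 3 or more libraries, which left 11268 genes for limma 3.58.1 (empirical Bayes moderation with trend, two-sided) in R 4.3.3. P-values were adjusted over all of them by Benjamini and Hochberg, with a threshold of 0.05. The procedure was tried on simulated data in which genes varied independently and no library stood apart. That trial therefore does not cover a library such as knockout library 3. SE belongs to the log2 fold change. Alternatives were other pseudocounts, filters, scalings, moderation and library weights, a replicate block, and leaving out libraries.

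Members and lists were chosen with earlier results of these data known. Named members were, in each of 8 groups by role, the 3 most abundant tested genes and the 2 with the largest absolute fold change, any that passed, and any with groups apart and an absolute log2 fold change of at least 1. In each of 5 pathway lists the genes that passed and the 2 with the largest absolute fold change were named, and Trp63. Other genes are examples chosen after their values were seen. Coding sequences are from GENCODE M21 and promoters from RefSeq, both on GRCm38 and matched by symbol, and no mm9 coordinates were used. Plots were made with matplotlib 3.10.9 and Python 3.11.15.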

Additional observations from a re-analysis of the deposited data

How the results depend on the processing

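Over 18 alternatives the median log2 fold change of the members stayed negative, from -0.38 without knockout library 1 to -0.10 without knockout library 3. The count of members called lower was 1 in place of 0, Gpx8 each time, with median-of-ratios scaling, quantile normalization and TPM rescaled without the 50 most abundant genes. Of all 11268 tested genes, 58, 55 and 88 were called lower and 15, 17 and 18 higher with these scalings, against 36 and 8 without rescaling. These scalings brought the median of all tested genes from 0.09 to 0.01, 0.01 and 0.03. With array weights 3 members were called higher and 9 lower, as were 30.9% and 11.9% of all tested genes. Leaving out 1 library at a time gave 0 to 3 members called higher, 0 to 8 called lower, 0 to 8 with the knockout above wild type without overlap and 12 to 17 below. The shares of all tested genes under the same settings were 6.04% to 47.3% above and 17.2% to 21.01% below, and with the 3 other scalings 12.8% to 13.5% above and 14.5% to 14.6% below. All members called with 1 library left out came without knockout library 3, where 33.8% of all tested genes were called higher and 11.7% lower. Without the 3 libraries high in Amy1 or Muc19, an alternative chosen after seeing the data in which the 1 wild-type library left is assumed to vary like the knockout, 1 member lay above and 24 below wild type (12.5% and 32.6% of all tested genes), and 0 were called.

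Signs turned for 9 named genes, none of which passed with all libraries, and the cause was not tested. Txn2 was at -0.062 with median-of-ratios scaling, -0.030 with quantile normalization and -0.042 without the 50 most abundant genes. Array weights gave 0.11 for Gpx4, 0.015 for Gss, 0.25 for Gsto1, 0.034 for Mgst1 and 0.13 for Sod1. Without the libraries high in Amy1 or Muc19, Gstm1 was at -0.23 and Hmox1 at -0.19. With 1 library left out the values ran from -0.49 to 0.066 for Gpx4, -0.55 to 0.024 for Gss, -0.46 to 0.31 for Gsto1, -0.039 to 0.76 for Hmox1, -0.63 to 0.23 for Mgst1, -0.32 to 0.21 for Sod1, -0.045 to 0.11 for Txn2 and -0.25 to 0.018 for Txnrd1.

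The labels pair no libraries. With neighbouring index numbers in the titles as a replicate block, 0 members were called higher and 0 lower, the lowest adjusted p of a member was 0.094 (Gpx1), and 7 genes were called higher and 24 lower of all tested, against 8 and 36 without the block. Deviations from the group means correlated at 0.167, 0.232 and 0.0769 across genes in these pairs. The depth is unknown, so counting error in low genes such as Gpx8, Gstm4 and Nqo1 could not be given.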
